A study of Mus musculus with 2 samples.

Results

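The genes described here are 7 receptors of the SLAM family (Slamf1, Slamf6, Slamf7, Ly9, Cd48, Cd84 and Cd244) and 3 small adaptor genes (Sh2d1a, Sh2d1b1 and Sh2d2a), chosen by symbol from the 22609 genes counted. All 10 symbols were listed in both libraries. The RNA came from CD8+ regulatory T cells, T cells that restrain other immune cells, sorted from the spleen of naive mice aged 3 months. The WT group was 1 library from wild-type mice. The DKO group was 1 library from Tgfbr2-/-Eomes-/- mice, labelled as lacking a TGF-beta receptor subunit and the T-box transcription factor Eomes. The labels name no Cre driver, no markers of the sort and no number of pooled mice. With 1 library per genotype no spread between animals could be measured and no p-value was computed. Each interval below is an exact 95% interval for counting error in these libraries, and it does not compare the genotypes.

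SLAM receptors are immunoglobulin-type surface proteins of blood cells, and most of them bind the same receptor on a neighbouring cell. Cd48 and Cd244 are the exception: CD48, which is held by a lipid anchor and has no signalling tail, is the ligand of CD244 and also of CD2. The tails of the other receptors carry switch motifs whose phosphorylated tyrosine is bound by SAP (encoded by Sh2d1a), which recruits the kinase Fyn, or by EAT-2 (encoded by Sh2d1b1). Where the adaptors are missing, the same motifs can recruit the phosphatases SHP-1, SHP-2 and SHIP-1. SAP is needed for follicular helper T cells and for NKT cells, and SAP with its receptors regulates killing by CD8+ T cells and NK cells. TSAd, the product of Sh2d2a, is a T cell adaptor that binds the kinase Lck. It shares the SH2 domain with SAP but is not usually counted among the SAP adaptors.

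The switch motif joins the 2 groups of genes, so its coding sequence is shown for the first motif of each receptor that has one in its tail. A motif was counted wherever the protein read from the GENCODE M21 transcripts (build GRCm38, sense strand) held a threonine, any residue, a tyrosine, any 2 residues, and a valine or isoleucine. Capitals mark the codons of the threonine, the tyrosine and the valine or isoleucine.
Slamf1, residues 286 to 291 of 343: ACTattTATgcccaaGTA
Slamf6, residues 293 to 298 of 351: ACTgtgTATgcacaaGTC
Slamf7, residues 300 to 305 of 335: ACAtttTATtccactGTG
Ly9, residues 585 to 590 of 654: ACTccaTATgataaaGTG
Cd84, residues 263 to 268 of 329: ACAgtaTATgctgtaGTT
Cd244, residues 264 to 269 of 397: ACAataTATgaatatGTC
The reference protein of Cd244 held 4 such motifs, those of Slamf1, Slamf6, Ly9 and Cd84 held 2 each, and that of Slamf7 held 1. Cd48 held 1 match at residues 105 to 110 of 240, in a protein with no tail inside the cell. The adaptors held 0 matches. SAP and EAT-2 were similar in length, at 126 and 132 residues, and had 39.0% identity over 100 aligned positions. TSAd was longer, at 374 residues, and aligned over a shorter stretch. It had 50% identity with SAP over 30 positions and 45.2% with EAT-2 over 31.

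Transcripts of 6 of the 7 receptors were higher in the DKO library, by 1.22-fold to 5.12-fold, and Ly9 was slightly lower. In bulk RNA, fewer cells of a type and less RNA per cell cannot be told apart. Of the 3 adaptors, Sh2d1b1 was higher and Sh2d1a and Sh2d2a were lower. All 10 genes had at least 1 CPM (a gene's share of its library's counts, after TMM scaling) in either library and were compared. A call of higher or lower needed a difference of 2-fold or more and an interval that did not contain 1. By this rule 2 of the 10 genes were higher, Slamf1 and Sh2d1b1, and 0 were lower, beside 11.6% and 3.6% of the 11735 genes compared. At a limit of 1.5-fold Cd244 joined them, which made 3 of 10 beside 17.7% of all genes called higher and 8.42% called lower. The median log2 ratio was 0.50 for the receptors, -0.32 for the adaptors and 0.45 for the 10 genes, against 0.00 for all genes compared. All 10 intervals left out 1: 7 lay above 1 and 3 below 1, beside 35.8% and 35.7% of all genes compared.

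**Figure D1:**
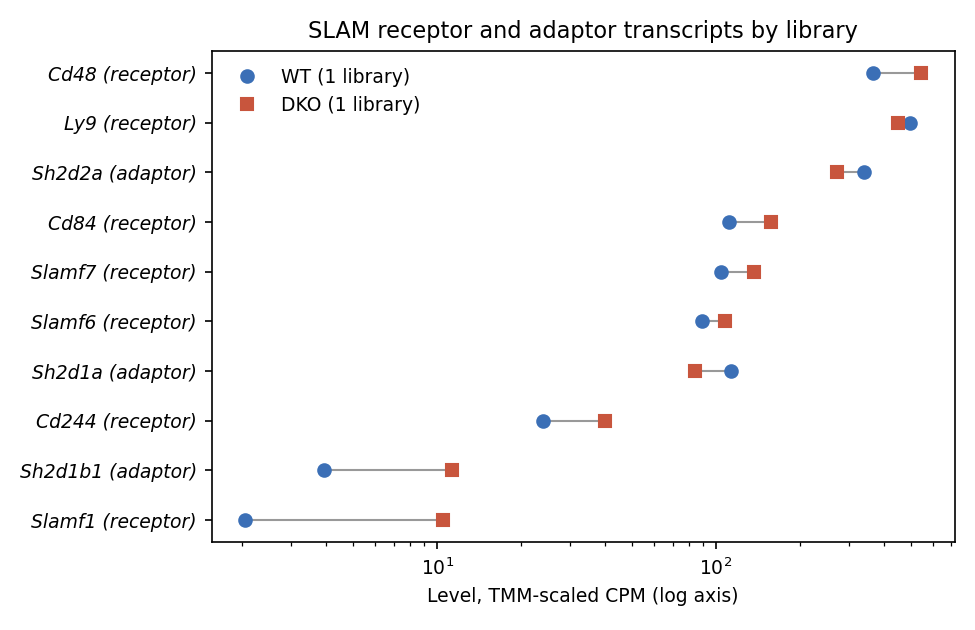
Level of each SLAM receptor and adaptor gene in CPM on a log axis, with a circle for the WT library, a square for the DKO library and a line joining them. Slamf1 and Sh2d1b1, at the bottom, have the longest lines, and for Sh2d1a, Sh2d2a and Ly9 the square lies to the left of the circle.

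Slamf1 encodes SLAM itself (CD150), a self-binding receptor of activated T cells, B cells and antigen-presenting cells. It was counted 45 times in WT and 210 times in DKO, which scaled to 2.05 and 10.5 CPM. DKO exceeded WT 5.12-fold (interval 3.70 to 7.23), the largest ratio among the 10 genes. Its WT count was the lowest among them. Its log2 ratio of 2.34 was above that of 96.7% of the genes compared. Markers of CD4+ and FOXP3+ T cells summed to 92.4 CPM in WT and 213 CPM in DKO, and those of dendritic cells to 85.2 and 195 CPM. Macrophage and monocyte markers summed to 855 and 1597 CPM. B cell markers had a lower sum in DKO, at 134 and 91.0 CPM, but a higher one without Cd22, at 51.1 and 66.9 CPM. The part of such cells in the Slamf1 ratio was not tested.

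Cd244 encodes 2B4, a receptor of NK cells and of some CD8+ T cells. Its 528 counts in WT and 801 in DKO scaled to 24.1 and 40.1 CPM, a ratio of 1.66 (1.49 to 1.86). Cd48, its ligand, is found on most white blood cells. From 8011 counts in WT to 10885 in DKO, it went from 365 to 544 CPM, which was higher by 1.49-fold (1.45 to 1.53). Ligand and receptor thus differed in the same direction, and the number of Cd48 reads per Cd244 read was 15.2 in WT and 13.6 in DKO. That ratio changed by a factor of 0.896 (0.798 to 1.005), so a change was not detectable at this depth. Cd2, the other receptor that binds CD48 in mice, stood at 679 CPM in WT and 622 CPM in DKO, lower by 1.09-fold (1.07 to 1.12).

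Cd84, Slamf7 and Slamf6 encode self-binding receptors and had more moderate ratios. Cd84, which supports contact between T cells and B cells, gave 2442 counts in WT and 3155 in DKO (111 and 158 CPM), a ratio of 1.42 (1.34 to 1.495). Slamf7, a receptor of NK cells, plasma cells and cytotoxic T cells, gave 2282 counts in WT and 2730 in DKO (104 and 137 CPM), a ratio of 1.31 (1.24 to 1.39). Slamf6 encodes Ly108, which is carried by naive and stem-like T cells. It gave 1950 counts in WT and 2164 in DKO (88.9 and 108 CPM), a ratio of 1.22 (1.14 to 1.30). All 3 were thus higher in DKO, by less than 1.5-fold. The balance of Slamf6 to Slamf7, taken within each library and so free of scaling, was 0.855 reads per read in WT and 0.793 in DKO. It changed by a factor of 0.928 with an interval of 0.853 to 1.01, which holds 1.

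Ly9 encodes CD229, a receptor with 4 immunoglobulin domains that is abundant on T cells and innate-like lymphocytes. It was the 1 receptor on the lower side, where 10923 counts in WT stood against 9010 in DKO. This was 498 against 451 CPM, lower by 1.10-fold (1.07 to 1.14). Against Cd84 the shift within the libraries was larger: there were 4.47 Ly9 reads per Cd84 read in WT and 2.86 in DKO, 1.57-fold fewer (1.47 to 1.66). Slamf1 was higher relative to Slamf6, with 0.0231 Slamf1 reads per Slamf6 read in WT and 0.0970 in DKO, 4.21-fold more (3.01 to 5.97).

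**Figure D2:**
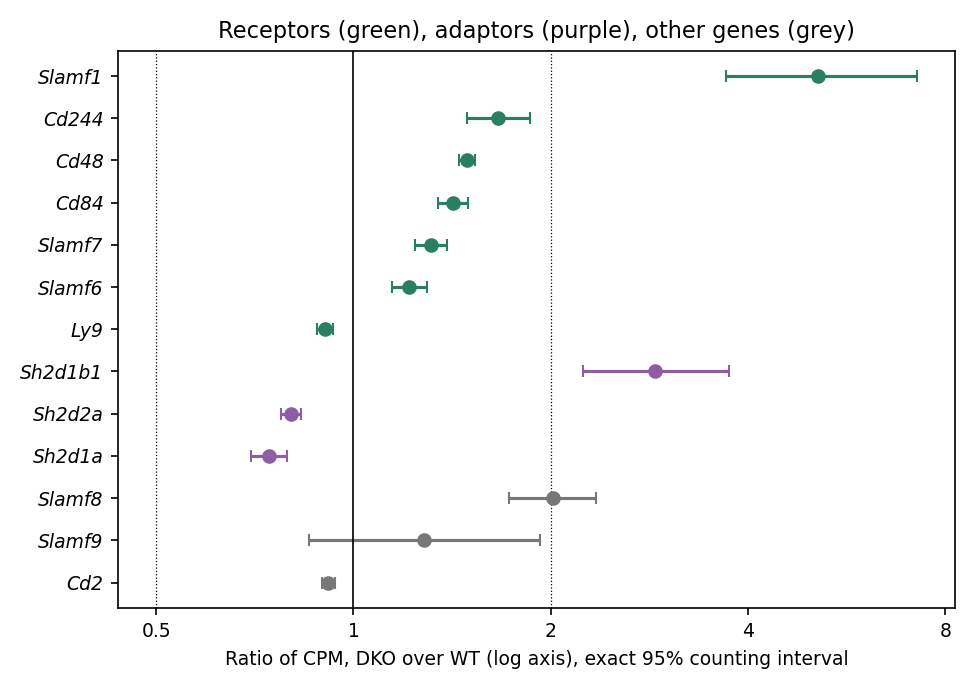
Ratio of CPM, DKO over WT, on a log axis for the receptors (green), the adaptors (purple) and 3 other genes (grey), with bars for the exact 95% counting interval and dotted lines at 2-fold. Slamf1 and Sh2d1b1 have intervals wholly above 2, and those of Ly9, Sh2d1a, Sh2d2a and Cd2 lie below 1.

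The adaptor genes split. Sh2d1a had 2476 counts in WT against 1676 in DKO, which is 113 against 83.8 CPM and 1.35-fold lower (1.27 to 1.43). For Sh2d2a 7440 counts in WT stood against 5446 in DKO (339 and 272 CPM), 1.25-fold lower (1.20 to 1.29). Sh2d1b1, whose product EAT-2 is known from NK cells and antigen-presenting cells, went the other way, with 86 counts in WT against 226 in DKO (3.92 and 11.3 CPM), a ratio of 2.88 (2.24 to 3.74). NK cell markers summed to 584 CPM in WT and 952 CPM in DKO beside it, and their part in this ratio was not tested. The SAP gene was still the more abundant of the SAP and EAT-2 pair in both libraries. WT had 28.8 Sh2d1a reads per Sh2d1b1 read and DKO 7.42, which is 3.88-fold fewer (2.99 to 5.07). Sh2d1a and Sh2d2a kept a closer balance, at 0.333 and 0.308 reads of the former per read of the latter, a change by a factor of 0.925 (0.861 to 0.994). The transcripts of Sh2d1b1 share 13.4% of their windows of 50 bases, the read length, with Sh2d1b2, a near copy with 83.3% protein identity, so reads from those windows may be missing from the counts. Sh2d1b2 was listed at 0 in both libraries.

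Levels of different genes can be compared per length of transcript, here in CPM per kb of the longest reference transcript. On that scale Cd48 was the most abundant of the 10 genes in both libraries, with 308 CPM per kb in WT and 459 in DKO. Ly9 was next with 200.1 in WT and 181 in DKO, and then Sh2d2a with 75.6 and 60.7. Sh2d1a held rank 4 in WT with 41.1 CPM per kb and rank 6 in DKO with 30.5, where Cd84 (32.4 and 46.0) and Slamf7 (26.2 and 34.4) stood above it. Slamf6 had 15.5 and 18.9 CPM per kb, Cd244 6.40 and 10.7, Sh2d1b1 1.54 and 4.44, and Slamf1 0.464 and 2.38. Summed in this way, the 7 receptors had 589 CPM per kb in WT and 752 in DKO, and the 3 adaptors had 118 and 95.7. Cd48 made up 52.3% of the receptor sum in WT and 61.0% in DKO, and Ly9 34.0% and 24.1%. Which transcript was in use was not measured, so the order of genes with close values is uncertain.

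The size of a ratio has to be read against abundance. Slamf1 and Sh2d1b1 reached their highest level between 1 and 20 CPM, a range in which 25.6% of 4180 genes were called higher in the DKO library and 8.83% lower. Cd244, between 20 and 100 CPM, lay in a class where 4.71% of genes were called higher and 0.69% lower. The other 7 genes reached at least 100 CPM in either library, where 2.17% of 2627 genes were called higher and 0.761% lower. None of these 7 passed the 2-fold limit. In that class the median log2 ratio of all genes was -0.09, while Cd48 was at 0.58, Cd84 at 0.50, Slamf7 at 0.39 and Slamf6 at 0.28. Ly9 was at -0.14, Sh2d2a at -0.32 and Sh2d1a at -0.43. Cd48 had a higher ratio than 81.6% of all genes compared, and Sh2d1a a higher ratio than 14.4% of them.

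**Figure D3:**
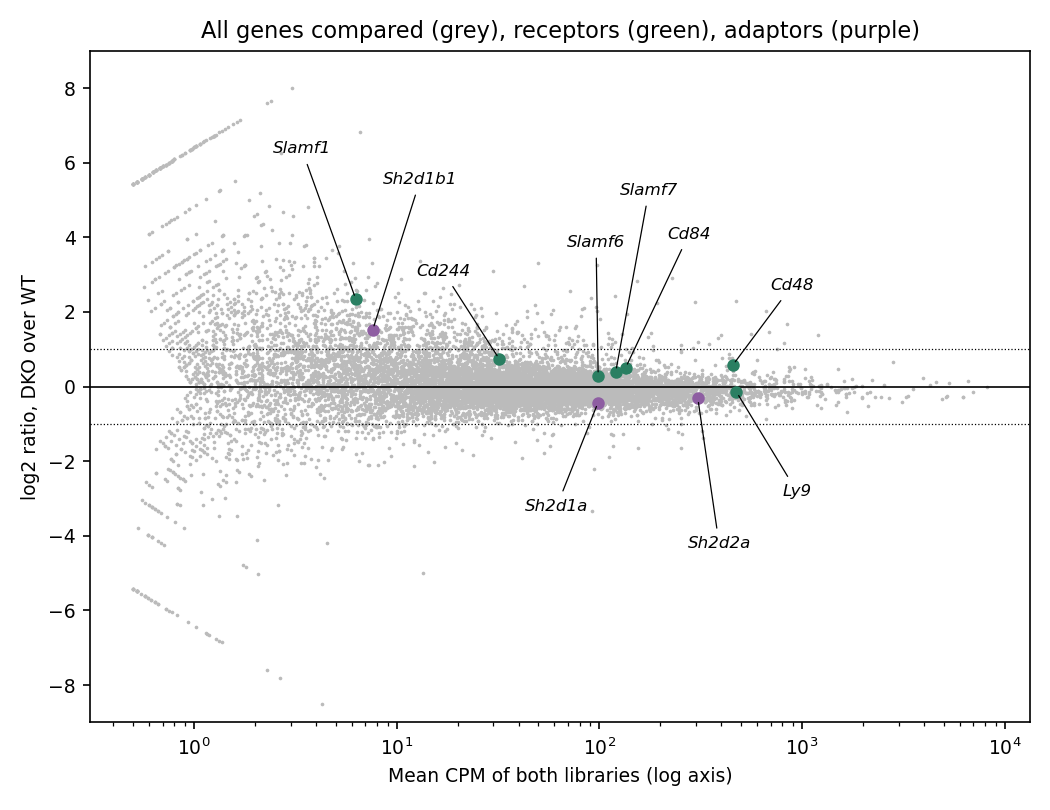
Log2 ratio, DKO over WT, of each gene compared (grey points) against its mean CPM in both libraries on a log axis, with receptors in green, adaptors in purple and dotted lines at 2-fold. Slamf1 and Sh2d1b1 lie above the upper dotted line at low abundance, where the grey points also spread most, and the other 8 genes lie between the lines.

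Of the family genes outside these 10, Slamf8 and Slamf9 were compared. Slamf8 was called higher and Slamf9 was neither, where 11.6% of all genes compared were called higher. Slamf8, a receptor of myeloid cells, gave 266 counts in WT and 488 in DKO (12.1 and 24.4 CPM), a ratio of 2.01 (1.73 to 2.35). Slamf9 gave 48 and 56 counts and a ratio of 1.28 with an interval of 0.855 to 1.92, so a difference was not detectable at this depth.

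Genes that act downstream of the receptors were mostly on the lower side. Of a list of 21 signalling partners, all of which were compared, 1 was called higher, 0 were called lower and 20 were neither, beside the 11.6% and 3.6% of all genes. The log2 ratio was below 0 for 15 of them, and the median was -0.15. Abundant genes lay lower in general: 14 of the partners reached 100 CPM in either library, and 12 of these were below 0 with a median of -0.29, beside 65.1% below 0 and a median of -0.09 for all genes of that class. Fyn, the kinase that SAP brings to the receptors, stood at 663 CPM in WT and 489 CPM in DKO, lower by 1.36-fold (1.32 to 1.39). Lck, whose product binds TSAd, stood at 1721 and 1299 CPM, lower by 1.33-fold (1.30 to 1.35). The exchange factor gene Vav1 stood at 323 and 221 CPM, lower by 1.46-fold (1.41 to 1.52). Ptpn6, which encodes the phosphatase SHP-1, stood at 873 and 599 CPM, lower by 1.46-fold (1.42 to 1.49). These 4 genes had the largest absolute log2 ratios among partners with at least 5 CPM. Inpp5d, encoding the phosphatase SHIP-1, was at 277 CPM in WT and 250.4 CPM in DKO, lower by 1.11-fold (1.07 to 1.15). Ptpn11, encoding SHP-2, was at 147 and 149 CPM with a ratio of 1.01 (0.965 to 1.07). Zbtb16, which encodes the NKT cell factor PLZF, was the gene called higher, with 27 counts in WT against 55 in DKO (1.23 and 2.75 CPM), a ratio of 2.23 (1.39 to 3.69). With a minimum of 5 CPM it was not compared, and 0 partners were called higher.

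The receptor genes have a common position, which the choice by symbol did not use. In the GRCm38 gene order of chromosome 1, the 7 receptors stand next to each other from Cd244 to Slamf6, with 1 further gene between them that was not analysed here. Of the 12 genes on each side, 16 of the 24 were compared. None of the 16 was called higher or lower, beside 11.6% and 3.6% of all genes compared. In the cluster 1 of 7 was called higher and 0 lower. These few genes cannot show whether the cluster differs from its flanks in calls. The median log2 ratio of the 16 was 0.15, with 11 above 0, where 5886 of all 11735 genes compared were above 0. Within the cluster the order was Cd244 at 0.73, Ly9 at -0.14, Slamf7 at 0.39, Cd48 at 0.58, Slamf1 at 2.34, Cd84 at 0.50 and Slamf6 at 0.28. Ly9 thus lay between 2 neighbours with higher values, and Slamf1 stood well above Cd48 and Cd84 on either side of it. Slamf8 and Slamf9 lie on the same chromosome beyond this group. Uniquely aligned reads that overlapped more than 1 gene stand in the authors' row of ambiguous reads. It held 0.209% of all rows' counts in WT and 0.212% in DKO. Non-unique alignments stand in a separate row, with 66.4% in WT and 64.8% in DKO.

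**Figure D4:**
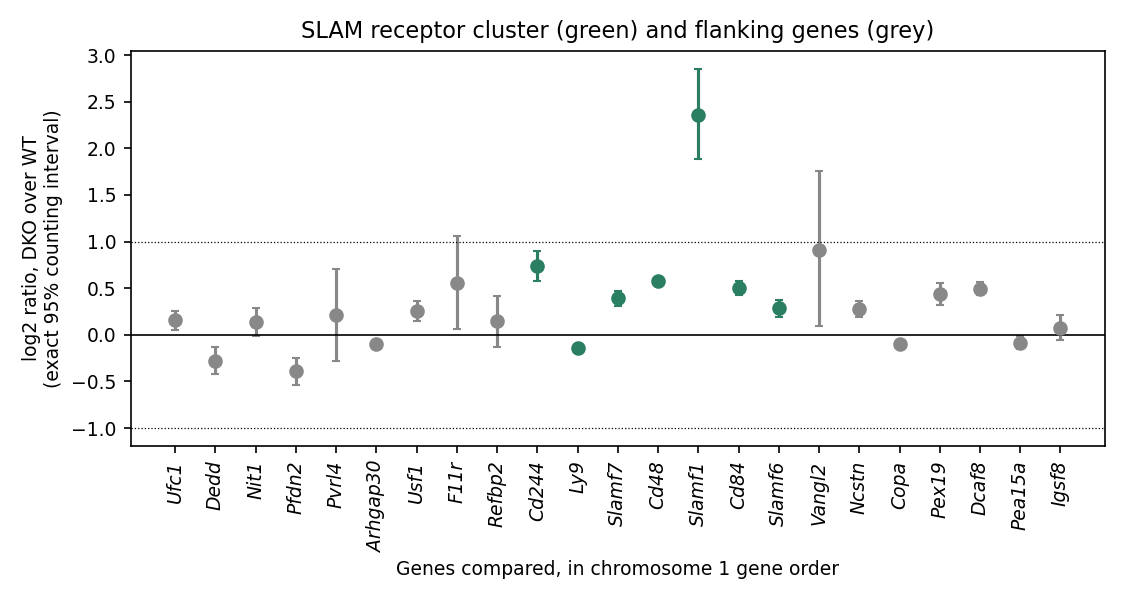
Log2 ratio, DKO over WT, with the exact 95% counting interval, for the 7 SLAM receptors (green) and the 16 flanking genes compared (grey) in the gene order of chromosome 1. Slamf1 alone among the genes shown lies above the dotted line at 2-fold, and Ly9 is the green point below 0.

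Several of these genes are expressed by other blood cells, and markers of such cells were present in both libraries. Counts of markers called, here and below, stand beside 11.6% of all genes compared called higher and 3.6% called lower. Among genes whose highest level lay between 1 and 20 CPM, these shares were 25.6% and 8.83%. For CD8+ T cells, 7 of 8 fixed markers were in the files and summed to 6761 CPM in WT and 6179 CPM in DKO, with 0 of 7 called. The log2 ratio was below 0 for 6 of these 7 markers, with a median of -0.18. Thy1 (1801 and 1586 CPM) and Cd8b1 (1201 and 1220 CPM) had the most counts of them. NK cells are known to express Sh2d1b1, Cd244 and Slamf7, and their markers summed to 584 and 952 CPM, with 3 of 6 called higher and 0 lower. Among them Tyrobp had 158 and 344 CPM, Klrb1c 121 and 208 CPM and the defining receptor gene Ncr1 33.5 and 86.6 CPM, while Klre1 was lower, at 150 and 93.1 CPM.

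Beside Slamf1, Slamf8, Cd84 and Cd48, macrophage and monocyte markers summed to 855 and 1597 CPM, with 2 of 8 called higher and 0 lower, and were led by Lyz2 (495 and 1000 CPM) and Csf1r (174 and 329 CPM). Neutrophil markers summed to 498 and 2466 CPM with 6 of 6 called higher, led by S100a9 (261 and 1066 CPM) and S100a8 (103 and 490 CPM). Dendritic cell markers had 5 of 8 called higher and 0 lower, led by Itgax (40.5 and 100.2 CPM) and Flt3 (16.4 and 30.0 CPM). CD4+ and FOXP3+ T cell markers had 4 of 6 called higher and 0 lower, led by Zbtb7b (67.8 and 101 CPM) and Cd4 (17.4 and 79.0 CPM). Beside these counts, 11.6% of all genes compared were called higher and 3.6% lower.

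The next counts of markers also stand beside 11.6% of all genes compared called higher and 3.6% called lower. B cell markers had a lower sum in DKO, at 134 and 91.0 CPM, with 1 called higher and 2 lower of the 7 compared. That lower sum rested on Cd22, at 82.8 and 24.1 CPM: without it the other 7 markers summed to 51.1 and 66.9 CPM. The log2 ratio was above 0 for 5 of the 7 compared, with a median of 0.57, and Cd79b was at 36.6 and 44.6 CPM. Plasma cell markers summed to 302 and 538 CPM, with 2 of 6 called higher and 1 lower. They were led by the joining chain gene Igj (189 and 389 CPM), which held most of that rise, and Xbp1 (87.9 and 110 CPM). The log2 ratio was above 0 for 4 of the 6 and below 0 for 2. Those 2 were Tnfrsf17, called lower at 1.32 and 0.50 CPM, and Sdc1, nearly level at 4.06 and 3.90 CPM. Platelet and erythroid markers were low, at 11.4 and 23.1 CPM in sum, with 2 of the 3 compared called higher, led by Ppbp (8.62 and 11.6 CPM) and Pf4 (1.91 and 6.90 CPM). In that list Hba-a1 and Hbb-b1 were at 0 in both libraries. In the other lists no marker was at 0 in either library. How much such cells contributed to the SLAM family ratios was not tested.

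**Figure D5:**
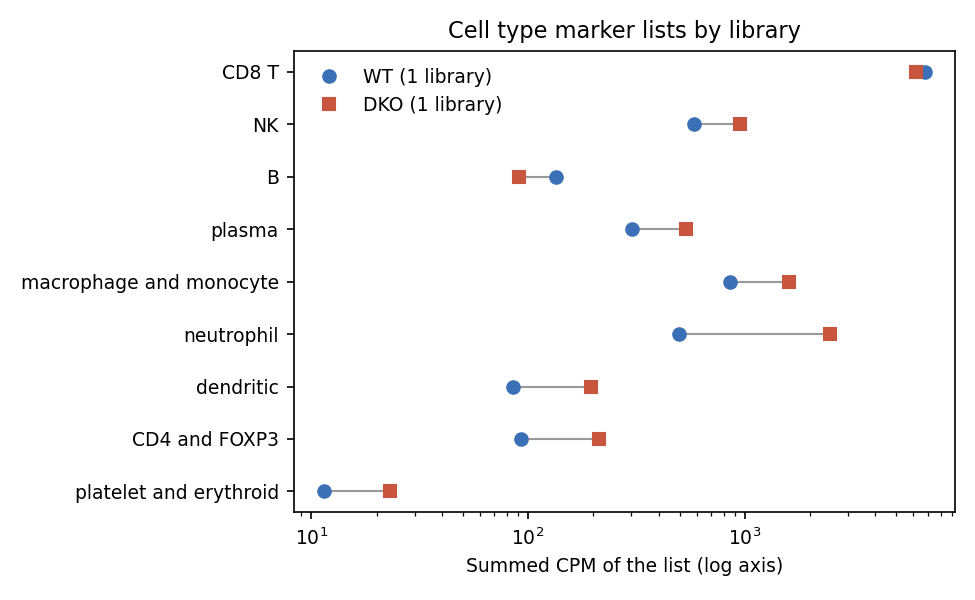
Summed CPM of each cell type marker list on a log axis, with a circle for the WT library and a square for the DKO library. The square lies to the right of the circle for 7 of the 9 lists, to the left for B cells (to the right without Cd22) and CD8 T cells, and farthest to the right of its circle for neutrophils.

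The 22307065 gene counts of WT included 36183 for the 10 SLAM family and adaptor genes, and the 19661212 of DKO included 36303. Of the targeted genes, Eomes stood at 469 CPM in WT against 180 CPM in DKO, lower by 2.61-fold (2.52 to 2.72). Tgfbr2 stood at 357 against 244 CPM, lower by 1.46-fold (1.41 to 1.51). Both were thus lower in the library labelled as lacking them, yet still counted. Whether those reads came from the deleted exons cannot be seen in counts per gene.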

How the data were processed

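Each library's file, as the authors deposited it, holds raw whole-number read counts by gene symbol. Build mm9 and the tools HTSeq, TopHat2 2.0.8b and bcl2fastq appear in the submitters' processing notes with no stated role, and the labels' protocols give total RNA libraries read as single ends of 50 bases. Neither annotation nor strand setting is stated there. The 5 rows that name no gene were left out; non-unique alignments were 66.4% of all rows' counts in WT and 64.8% in DKO.

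Counts were scaled with TMM factors from edgeR 4.0.16 (R 4.3.3). Log2 ratios used a prior count of 0.5, and intervals are Clopper-Pearson 95% intervals of the DKO share of a gene's counts (scipy 1.17.1), or exact conditional intervals of an odds ratio for pairs of genes. Since reads were not tagged by molecule and PCR copies are not independent, intervals cover counting error only. Calls needed 1 CPM in either library, a ratio of at least 2-fold and an interval without 1. No test across animals was possible with a single library in each group.

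The members and lists were chosen with earlier results of these data known. Named were all 10 members, Slamf8, Slamf9, Sh2d1b2, Cd2, the targeted genes, Fyn, Ptpn6, Inpp5d, Zbtb16, the 4 partners with the largest absolute log2 ratio at 5 CPM or more, and the 2 markers per list with the most counts. Ptpn11, Ncr1, Klre1, Fcer1g, Itga2, Tnfrsf17, Sdc1, the genes at 0 and the flanking genes were added after values were seen. So were the split of the partners by abundance and the B cell sum without Cd22. Values of some single markers are not reported here. On simulated counts for DKO against WT, 100% of 50 genes set 2.5-fold higher and of 50 set 2.5-fold lower were recovered. Of 11256 unchanged genes 0.178% were called. The simulation held counting error alone, with no spread between animals. Genes given a fold had a mean of at least 5 CPM, so recovery below that level was not simulated. Transcript lengths and motifs came from GENCODE M21 (GRCm38) and promoters from RefSeq (GRCm38.p6); no coordinates of that build were joined to the mm9 counts.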

Additional observations from a re-analysis of the deposited data

How the results depend on the processing

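Scaling by total gene counts, by DESeq2 1.42.0 size factors or by the summed CD3 and CD8 chains moved all log2 ratios by 0.05, 0.00 and 0.08 and left the direction of each of the 10 genes in place. Slamf1 and Sh2d1b1 were the genes called under each of these, with a minimum of 5 CPM or none, and with a prior count of 5. A limit of 4-fold left 1 gene, Slamf1. With CD3 and CD8 scaling the median of the 10 genes was 0.53. Of all genes, 738 were higher and 147 lower with a minimum of 5 CPM, against 1361 and 423. Without a minimum 1987 were higher and 693 lower. A limit of 1.5-fold gave 2072 higher and 988 lower, and 4-fold gave 515 and 139. Among signalling partners 0 were higher with a minimum of 5 CPM or at 4-fold, since Zbtb16 was at 2.75 CPM and 2.23-fold. No paired analysis was possible because each genotype had 1 library, and no replicate could be left out. Of the 10 genes, Slamf1 and Sh2d1b1 had the fewest counts, and the counting interval of Slamf1 reached from 3.70 to 7.23.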

Other observations

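Promoter windows of 300 bases from RefSeq (GRCm38.p6, 250 bases before to 50 after the gene start) were found for Slamf1, Slamf6, Slamf7, Cd48, Cd84, Cd244 and Sh2d1b1, and not for Ly9, Sh2d1a and Sh2d2a. The T-box letters AGGTGTGA, read on both strands, were in 0 of these 7 windows and in 1.28% of 32851 windows of all genes. The Smad letters GTCTAGAC, which read the same on both strands, were in 0 of the 7 and in 0.213% of all. With letters this rare, 0 of 7 windows would be the usual outcome for any genes. The absence therefore does not set these promoters apart.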
